A study of Homo sapiens with 6 samples.

Results

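Addition of estradiol (E2) to cells with wild-type estrogen receptor alpha (ERα) was described by 2 lists of ERα-bound regions, one made with 1 nM E2 and one without. The peaks of both lists on chromosomes 1 to 22 were merged where they overlapped by at least 1 bp. This gave 138139 regions, out of 169433 regions when the lists of all 6 libraries of the series are merged in the same way. The binding of ERα was mapped by ChIP-seq, the sequencing of DNA fragments pulled down with an antibody against it, in MDA-MB-453, an established human breast cancer line that is positive for the androgen receptor and does not make ERα of its own. The cells carried an inducible wild-type, Y537S or K303R receptor. They were grown for 2 days in medium with 10% fetal bovine serum and for 2 more days with 2 µg/mL doxycycline, the inducer, before fixation with or without 1 nM E2. The group without E2 therefore also received doxycycline, and no library without doxycycline is used here.

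Each group holds 1 library, taken from 2 plates, so that no difference has a replicate check and a comparison sets 2 libraries against each other. Wild type is represented by a single inducible line with an ectopic receptor. The labels do not say that hormones were removed from the serum, so the group without added E2 may not have been free of estrogen. The lists hold no RNA or protein levels, and neither the amount of receptor in the 2 cultures nor the markers of the cell line were measured here. Intervals are given at 95% and reflect counting error alone.

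ERα is a nuclear receptor that binds E2 in its ligand-binding domain, changes shape, recruits coactivators and binds DNA as a dimer. Its classical site, the estrogen response element, is a palindrome whose arms read GGTCA, and the receptor also reaches DNA through a single arm or through other factors such as AP-1. In breast cells it is known for binding far from start sites, in enhancers that are opened by FOXA1 and GATA3, and for turning on genes such as GREB1, PGR and TFF1.

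Promoter sequences were read for 8 regions, where letters and a difference with E2, or its absence, can be set side by side. They are examples chosen after their values were seen, and other promoters with such regions are not shown. The summit of each region, its highest point, lay in the window from 250 bp before to 50 bp after a RefSeq start site, and the 250 bases before that site are given in the direction of transcription (RefSeq, GRCh38.p14). Capitals mark exact matches to GGTCA on either strand (TGACC is the same motif on the other strand) in the following promoters, whose regions held more fragments with E2. They belong to OXT, the gene of the hormone oxytocin (chr20:3071370-3071619, plus strand), SIPA1, a GTPase-activating protein for Rap (chr11:65639871-65640120, plus strand), and TEX35 (chr1:178512859-178513108, plus strand).
OXT: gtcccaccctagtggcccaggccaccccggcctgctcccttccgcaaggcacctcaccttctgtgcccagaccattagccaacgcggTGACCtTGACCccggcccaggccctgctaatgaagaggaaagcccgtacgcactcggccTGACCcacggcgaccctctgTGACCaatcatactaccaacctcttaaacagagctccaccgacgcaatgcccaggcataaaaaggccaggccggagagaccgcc
SIPA1: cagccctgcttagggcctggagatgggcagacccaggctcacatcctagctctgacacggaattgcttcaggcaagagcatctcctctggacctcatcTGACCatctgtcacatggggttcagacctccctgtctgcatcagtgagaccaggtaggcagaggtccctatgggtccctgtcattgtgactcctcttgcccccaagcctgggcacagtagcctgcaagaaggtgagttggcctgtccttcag
TEX35: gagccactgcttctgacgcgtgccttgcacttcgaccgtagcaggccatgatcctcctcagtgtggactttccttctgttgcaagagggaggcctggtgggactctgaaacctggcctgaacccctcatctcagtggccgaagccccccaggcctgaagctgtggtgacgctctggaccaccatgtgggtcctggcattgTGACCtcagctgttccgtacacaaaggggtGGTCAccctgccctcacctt

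The 3 promoters whose regions held fewer fragments with E2 are those of EGLN1, the oxygen-sensing prolyl hydroxylase PHD2 (chr1:231422288-231422537, minus strand), the antisense RNA KRT7-AS (chr12:52247449-52247698, minus strand), and DDX5, an RNA helicase (chr17:64506290-64506539, minus strand). Capitals mark GGTCA in DDX5 and the AP-1 motif TGANTCA in KRT7-AS, and EGLN1 held no GGTCA in the bases shown.
EGLN1: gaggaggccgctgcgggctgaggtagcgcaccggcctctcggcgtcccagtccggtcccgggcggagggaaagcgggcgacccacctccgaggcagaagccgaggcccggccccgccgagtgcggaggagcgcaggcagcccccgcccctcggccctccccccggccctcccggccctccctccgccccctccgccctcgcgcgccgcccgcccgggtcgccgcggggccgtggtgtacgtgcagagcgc
KRT7-AS: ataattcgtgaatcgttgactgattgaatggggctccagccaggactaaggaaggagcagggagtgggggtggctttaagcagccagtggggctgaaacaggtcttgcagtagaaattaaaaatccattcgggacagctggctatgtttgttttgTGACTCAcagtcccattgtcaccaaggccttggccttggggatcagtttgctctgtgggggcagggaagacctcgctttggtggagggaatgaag
DDX5: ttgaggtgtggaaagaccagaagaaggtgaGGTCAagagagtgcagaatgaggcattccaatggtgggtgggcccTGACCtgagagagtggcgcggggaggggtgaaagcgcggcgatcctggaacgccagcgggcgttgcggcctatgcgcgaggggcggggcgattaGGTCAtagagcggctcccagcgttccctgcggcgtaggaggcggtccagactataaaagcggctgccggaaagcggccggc

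The full palindrome of GGTCA, any 3 bases and TGACC, in capitals, occurred in the promoters of SLC35B2, a sulfate-donor transporter (chr6:44257529-44257778, minus strand), and ZNF669, a zinc finger gene (chr1:247104357-247104606, minus strand). Neither region was called higher or lower with E2.
SLC35B2: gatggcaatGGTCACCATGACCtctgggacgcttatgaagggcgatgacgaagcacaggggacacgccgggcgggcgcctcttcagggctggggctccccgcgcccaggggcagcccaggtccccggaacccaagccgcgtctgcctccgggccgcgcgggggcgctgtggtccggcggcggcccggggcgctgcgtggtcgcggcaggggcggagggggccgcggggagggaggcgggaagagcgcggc
ZNF669: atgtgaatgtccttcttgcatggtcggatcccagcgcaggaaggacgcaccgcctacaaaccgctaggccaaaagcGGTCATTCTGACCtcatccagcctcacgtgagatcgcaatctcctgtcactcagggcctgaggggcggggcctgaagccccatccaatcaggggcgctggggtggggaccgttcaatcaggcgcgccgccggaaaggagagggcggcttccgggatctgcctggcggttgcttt

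Most bound regions were found both with and without E2, and the regions found in 1 list were weak. The list without E2 held 121641 peaks over 55.2 Mb and the list with E2 held 117710 peaks over 51.2 Mb, with a median width of 418 and 402 bp. Of the 138139 merged regions, 99344 (71.9%) were in both lists, 17156 (12.4%) only in the E2 list and 21639 (15.7%) only in the list without E2. The number of fragments at each summit was recovered from the deposited fold and p-value, and its median over peaks was 27 in both libraries. Regions in both lists had a median of 34 fragments in each library. Regions in 1 list had a median of 12, and their median width was 257 bp with E2 and 275 bp without, against 501 bp for shared regions. The highest count in either class was 116 fragments.

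Strong peaks were rarely missing from the other list. Among the strongest 2 deciles of each list by −log10 p, 0 peaks were absent from the other list (upper bound 0.0316% per decile without E2 and 0.0326% with E2). In the third decile 3 of 12164 peaks without E2 and 4 of 11771 with E2 were absent. The share grew to 59.2% and 49.0% in the weakest decile, where the median peak had 9 fragments. A weak peak can drop out of a list by crossing the authors' threshold, so absence from a list does not show absence of receptor.

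**Figure D1:**
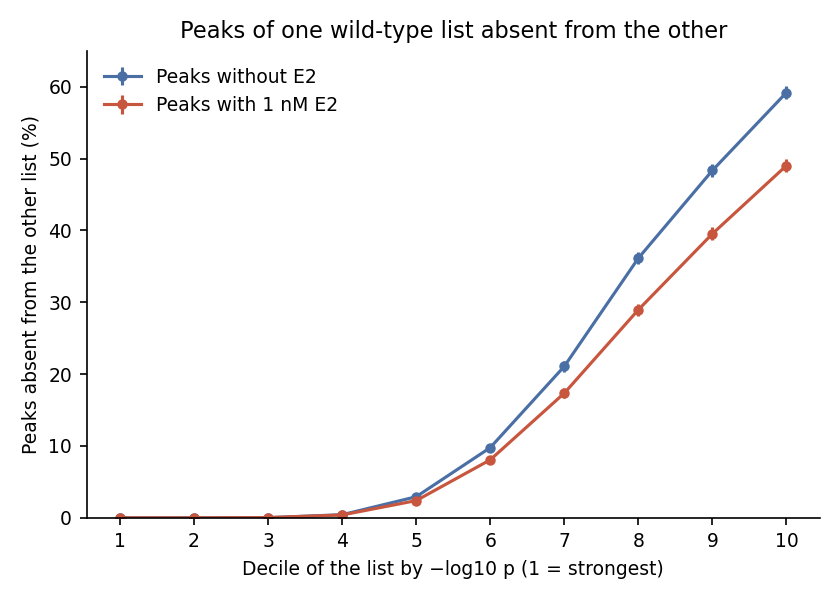
The percentage of peaks of each wild-type list (y axis) with no overlap in the other list is plotted for deciles of the list ordered by −log10 p (x axis, 1 = strongest). Points carry 95% Wilson intervals, and both lines stay at 0 in the first 2 deciles and end at 59.2% without E2 and 49.0% with E2.

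The strongest regions found in a single list lay in or near genes of varied function. Those found only with E2 were in KIF6, a kinesin, with 90 fragments, near KIF21B, another kinesin, with 61, in CELF4, an RNA-binding protein, with 38, near MYL7, an atrial myosin light chain, with 37, and near ADCK5 with 105. The region near KIF21B was present in the K303R lists with 18 fragments without and 71 with E2, and in the Y537S lists with 92 and 115. The one near ADCK5 was in all 4 mutant lists with 94 to 153 fragments. Those found only without E2 were in HERC6, with 39 fragments, CORIN, a serine protease, with 37, R3HCC1L with 39 and FAM120B with 34, and 187109 bp from FSCB with 33. The regions with most fragments among these 10 were found only with E2 and had a high local background, 19.7 fragments at ADCK5 and 11.9 at KIF6, against 1.21 to 1.61 at the 5 regions found only without E2.

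Regions found in 1 wild-type list recurred in the lists of the other receptors less often than shared regions did. The former were also weaker, with a median of 12 fragments against 34, and the shares below are not matched for strength. Of the regions in both wild-type lists, 85.5% were in the Y537S list without E2 and 84.5% in that with E2. For K303R these shares were 80.0% and 82.0%. Y537S, a ligand-binding domain substitution known for activity without hormone, had 38.3% of the regions found only with E2 in its list without E2 and 36.6% in its list with E2. For K303R, a hinge substitution, the shares were 23.3% and 29.9%. Of the regions found only without E2, 30.7% and 27.8% were in the Y537S lists and 30.7% and 27.3% in the K303R lists. No mutant list held 36.1% of the former and 39.7% of the latter, against 3.79% of the regions in both wild-type lists. The names of the peaks contain what looks like a date, which is the same for wild type and K303R and another for Y537S, so receptor and tag cannot be told apart wherever Y537S is set beside them.

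Counts with and without E2 were close at most well-covered regions, the part of the shared regions with counts high enough to compare. Well-covered regions are those in both lists with a mean of at least 50 summit fragments, 36285 in all, and their ratios were divided by the median ratio of 1.008. The ratio lay within 1.5-fold of 1 at 92.4% of them, and Pearson's r of the log counts across regions, which are not independent replicates, was 0.90. Summits moved by a median of 18 bp between the lists. The strongest regions illustrate this. The region 81143 bp from RGS9, a regulator of G protein signalling, had 425 fragments without and 413 with E2. The region in MECOM, a zinc finger transcription factor gene, had 408 and 385, and that in PPFIA4, a liprin, had 385 and 379. The remaining strongest 5 of the list without E2 lay 17823 bp from ANKRD40CL (363 and 340) and 55289 bp from TUSC1 (377 and 359), and a region 29498 bp from RD3 led the E2 list (374 and 381). The ratio intervals of these 6 regions all include 1. With a pair of regions beyond CCND1 (366 and 381, and 370 and 378 fragments), they make up the strongest 5 of each list.

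A small set of regions changed, more of them upward than downward. A call needed a ratio past 1.5-fold and an exact interval, at an error rate of 0.001, that did not contain 1. By this rule 573 of the 36285 regions (1.58%) gained fragments with E2, called higher here, and 234 (0.645%) lost them, called lower. Scaled by the lowest local background of each library instead of the median region, 899 were higher and 106 lower. Over the higher regions the median count was 58 fragments without and 108 with E2 (median ratio 1.87), over the lower regions 97 and 51 (0.533), and over the uncalled ones 94 and 96. At least 2-fold differences numbered 197 upward and 67 downward, and 9 regions passed 3-fold upward. Among the called regions the largest ratio was 3.97 and the smallest 0.309. Regions found in 1 list have no ratio and could not be called. Of these, 213 found only with E2 and 127 found only without E2 had at least 50 fragments.

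**Figure D2:**
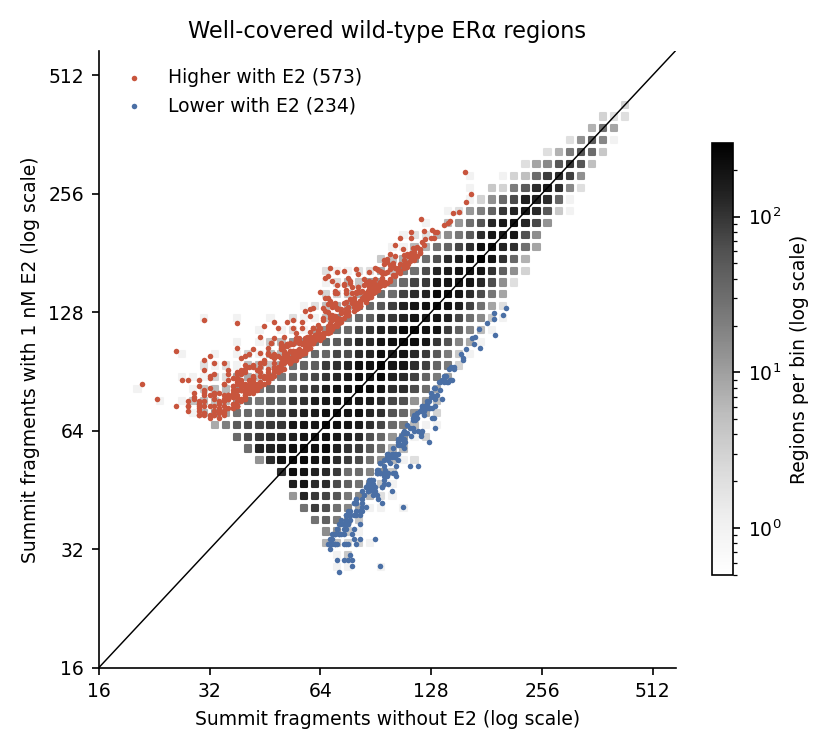
Summit fragments without E2 (x axis) are plotted against those with 1 nM E2 (y axis) at the well-covered wild-type regions, on log scales. Grey squares give the number of regions per bin, red points the 573 higher and blue points the 234 lower regions, and the diagonal marks equal counts. The strongest regions lie along the diagonal, and the called regions lie at middle and low counts.

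Few of the strongest regions were called. In the strongest quintile of well-covered regions by summed fragments (319 to 858), 16 of 7211 (0.222%) were higher and 2 (0.0277%) lower. In the remaining quintiles the higher share lay between 1.78% and 2.03%. The lower share was 0.958% in the weakest quintile and 0.359% in the next to strongest. The local background moved with the calls. Its median was 4.28 fragments without and 6.62 with E2 at the higher regions, and the ratio was over 1 at 99.7% of them. At the lower regions it was 5.17 and 3.45, and at uncalled regions 6.38 and 6.13. The control library is not given, so this background may include fragments of the same regions and may not be independent of the calls. Its part in the calls was not tested.

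The 10 higher regions whose intervals lay farthest from 1 started from 21 to 68 fragments. The first, 92090 bp from VRK1, a nuclear kinase, had 31 fragments without and 122 with E2 (chr14:96704947-96705566, ratio 3.90, interval 2.61 to 5.99). A region 33840 bp from the gene model LOC124905027 on chromosome 21 had 26 and 102 (3.89, 2.51 to 6.24). Inside RYR1, the calcium release channel of skeletal muscle, the counts were 21 and 84 (chr19:38508459-38508905, 3.97, 2.44 to 6.74). Each of these 3 regions had at least 60 fragments more in the E2 library, from counts below the median of 27 or just above it. ADAM12, a metalloprotease, held a region with 38 and 120 fragments (chr10:126234891-126235482, 3.13, 2.16 to 4.64). A region 21852 bp from PBX3, a homeodomain transcription factor, had 31 and 97 (3.10, 2.05 to 4.81). RIBC2 on chromosome 22 had 32 and 99 (3.07, 2.04 to 4.73). NSG1, an endosomal protein of neurons, had 27 and 86 fragments, a region 9285 bp from the zinc finger gene ZBTB21 had 23 and 77, and BAZ1B, a chromatin remodelling subunit, had 28 and 86, all with ratios of 3.05 to 3.32. SLC38A12 had the highest counts of the 10, 68 and 166 (2.42, 1.82 to 3.26), over a local background of 26.9 and 31.2 fragments. None of the 10 lay within 25 kb of one of the 45 classical estrogen receptor targets examined. The SLC38A12 region lay just outside this limit, with its summit at chr17:74795114, while the span of the target NHERF1 ends at 74769353.

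The 10 lower regions with intervals farthest from 1 fell from 72 to 126 fragments down to 28 to 60. A region 14337 bp from TBC1D1, a Rab GTPase-activating protein, had 93 fragments without and 29 with E2 (chr4:38153138-38153769, ratio 0.309, interval 0.197 to 0.474). A region 79912 bp from the cadherin gene FAT4 had 107 and 41 (0.380, 0.259 to 0.550). SLC7A6, an amino acid transporter, had 90 and 34 within 1 kb of a gene end (chr16:68265264-68265657, 0.375, 0.245 to 0.562). At each of these 3 the E2 library held fewer than 50 fragments. FYB2, an adaptor protein, had 118 and 52 fragments (0.437, 0.309 to 0.611), and SEPTIN9, a cytoskeletal GTPase, had 78 and 30 (0.382, 0.242 to 0.588). ARRB1, the gene of beta-arrestin, had 126 and 60 (0.472, 0.341 to 0.647). The helicase gene DHX35 had 76 and 30, the formin gene DIAPH3 had 72 and 28, and regions 825919 bp from MAT2B and 69229 bp from FLT1, a VEGF receptor, had 78 and 29, and 112 and 52.

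The same regions were examined in the other receptor lines, whose libraries took no part in the choice. In K303R, with the ratio divided by that line's own median, 557 of the higher regions had a ratio, with a median of 1.57, and 93.9% were over 1 (91.6% to 95.6%), against 49.5% of uncalled regions. Past 1.5-fold upward lay 59.8% of them, against 7.51% of uncalled regions. Over the lower regions the median K303R ratio was 0.794 and 17.4% were over 1, and 22.6% were lower by at least 1.5-fold, against 5.97% of uncalled regions. In Y537S the median ratio was 1.02 over 569 higher and 0.993 over 232 lower regions, with 56.6% (52.5% to 60.6%) and 46.6% over 1, against 49.9% of uncalled regions. The higher regions had a median of 98 fragments in Y537S without E2 and 112 with E2, against 93 and 105 at uncalled regions. In K303R they had 46 and 89, against 70 and 85 at uncalled regions. These counts are not scaled between libraries. Judged by the same rule in their own libraries, K303R had 740 higher (2.58%) and 218 lower regions (0.760%) of 28693, and Y537S had 43 (0.119%) and 29 (0.0801%) of 36227.

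**Figure D3:**
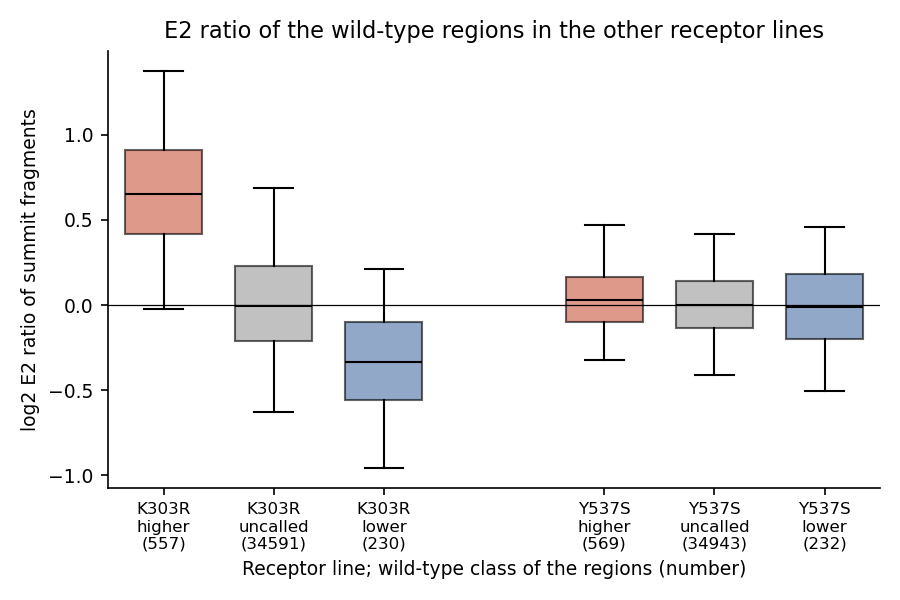
Boxes show the log2 ratio of summit fragments with E2 to without E2 in K303R and Y537S (y axis) at the regions called higher, uncalled or lower in wild type (x axis, number of regions in brackets). Boxes span the quartiles with the median as a line, whiskers span the 5th to 95th percentile, and 0 is each line's own median. The K303R boxes shift with the wild-type class, with medians of 0.65 and −0.33, while the Y537S medians are 0.03 and −0.01.

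Single regions varied around these medians. The VRK1 region had 29 and 81 fragments in K303R (ratio 2.34, interval 1.52 to 3.71) and 93 and 99 in Y537S (0.949, 0.707 to 1.27). RIBC2 had 33 and 125 in K303R (3.18, 2.15 to 4.82) and 133 and 175 in Y537S (1.17, 0.930 to 1.48). At RYR1 the interval in K303R included 1, with 23 and 35 fragments (1.28, 0.733 to 2.26), and the counts in Y537S were 73 and 77. Among the lower regions, FAT4 had 72 and 49 in K303R (0.571, 0.389 to 0.832) and 45 and 45 in Y537S. ARRB1 had 101 and 133 in K303R (1.10, 0.846 to 1.44) and TBC1D1 had 39 and 40 (0.860, 0.539 to 1.37). In K303R the E2 ratio was over 1 at all 10 higher regions named above and at 3 of the 10 lower ones, at DHX35, ARRB1 and DIAPH3.

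The location of called regions was described relative to gene ends and spans. At most 1 kb from an end of a gene, protein-coding or lncRNA, were 10.3% of the higher (8.07% to 13.1%), 9.40% of the lower (6.29% to 13.8%) and 9.78% of all well-covered regions. Within 5 kb the shares were 32.6%, 28.2% and 28.7%. With the limit at 1 kb, elsewhere inside a gene span lay 59.7%, 60.3% and 57.7%. Of the regions found only without E2, 13.3% lay within 1 kb of a gene end (12.9% to 13.8%), against 10.5% of those found only with E2 (10.1% to 11.0%) and 11.4% of shared regions.

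Some higher regions lay close together. Another higher region lay within 100 kb of 173 of the 573 higher regions (30.2%), while 16 of the 234 lower regions (6.84%) had another lower one that near. The higher set is also the larger, and no test of this difference was made. By chromosome, 22 stood highest, with 51 of 1109 well-covered regions higher (4.60%, 3.51% to 6.00%), followed by 21 with 2.64% and 11 with 2.36%. Chromosome 5 stood lowest, with 12 of 2077 (0.578%, 0.331% to 1.01%). Over all its well-covered regions chromosome 22 had a median log2 ratio of 0.06. When ratios were centred within 5 Mb windows, 33 of its regions (2.98%) were higher, against 1.27% of all.

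**Figure D4:**
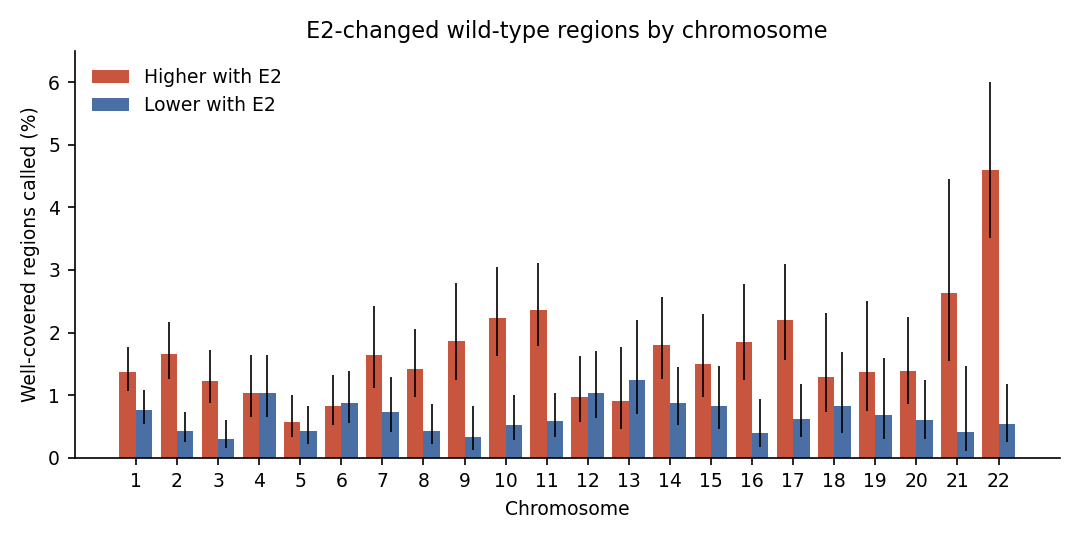
The percentage of well-covered regions called higher (red) or lower (blue) with E2 (y axis) is shown for each chromosome (x axis), with 95% Wilson intervals as lines. Chromosome 22 has the tallest red bar, 4.60%, and chromosome 5 the shortest, 0.578%.

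The gene with most higher regions was IGHMBP2, a helicase gene on chromosome 11. Of 9 regions in its span or within 25 kb, 7 were well covered and 6 of these were higher. Their counts without and with E2 were 147 and 228, 122 and 189, 119 and 185, 102 and 189, 39 and 89, and 75 and 143, in order along the chromosome. Their ratios ran from 1.54 to 2.26, past 1.5-fold as the call requires. All 6 were also larger with E2 in K303R (ratios 1.57 to 3.63), and in Y537S their ratios were 0.891 to 1.12. Within 250 kb of the middle of the gene, 11 of 28 well-covered regions were called, each of them higher, and with 5 Mb centring 10 were. The strongest region there, with 343 fragments without and 340 with E2, was not. Of the 28 regions, 21 had a ratio over 1, and the uncalled ones had a median ratio of 1.05.

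**Figure D5:**
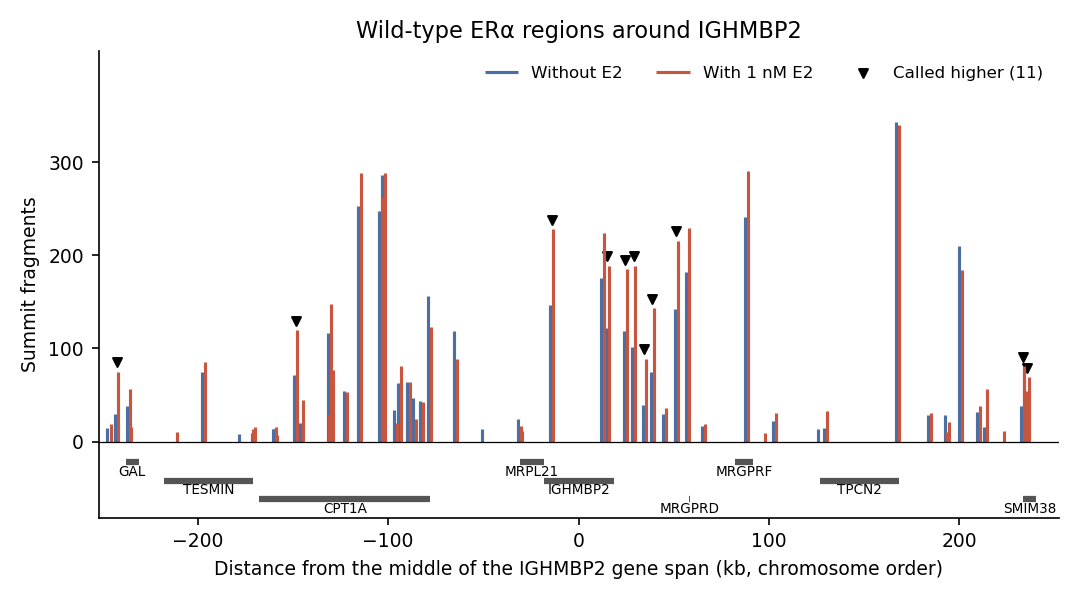
Summit fragments without E2 (blue) and with 1 nM E2 (red) (y axis) are drawn at their distance from the middle of the IGHMBP2 gene span (x axis, kb), with protein-coding gene spans as grey bars. Triangles mark the 11 regions called higher, 6 of which lie between −14.0 and 38.7 kb.

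Other genes held several higher regions. TBC1D22A on chromosome 22, a gene of the TBC family, had 5 higher of 25 well-covered regions, with counts from 39 and 81 to 120 and 221. KIF1A, an axonal kinesin, had 4 of 5, with 30 and 83, 90 and 155, 80 and 135, and 68 and 126 fragments. HMCN2, an extracellular matrix gene, had 4 of 12, the largest ratio being 2.91 (31 and 91 fragments, interval 1.92 to 4.53). LHPP, a phosphatase gene, had 4 of 8, with ratios of 1.51 to 2.16. DUOX2, an oxidase gene, tied with these at 4 of 7. The genes with most lower regions had 2 each. GRIK2, a kainate receptor subunit, had 95 and 50, and 83 and 40 fragments. OTOGL had 92 and 50, and 90 and 46. FRY had 89 and 45, and 70 and 33, MYO18A, an unconventional myosin, 94 and 42, and 95 and 48, and PACSIN2, an endocytic adaptor, 168 and 111, and 82 and 37. In all, 618 of 19126 protein-coding genes (3.23%) had a higher region in the span or within 25 kb, 88 of them at least 2. A lower region was near 238 genes (1.24%), 5 of them with 2. For scale, 92.3% of protein-coding genes had some region that near, 48.7% one found only with E2 and 57.4% one found only without E2.

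Classical estrogen receptor targets were bound in both libraries, and few of their regions were called. The share called was below that of all regions, on a count of 2, and the difference was not tested. The strongest region near each of the 45 genes was in both lists. Its ratio ran from 0.661 at UGCG to 1.81 at CALCR with a median of 1.00, and the interval included 1 for 41 genes. The 4 exceptions all had more fragments with E2. CALCR, the calcitonin receptor gene, had 45 and 82 (1.81, 1.24 to 2.66), CXCL12, a chemokine, 43 and 71 (1.64, 1.11 to 2.45), TFF3, a trefoil peptide, 91 and 135 (1.47, 1.12 to 1.94), and CCND1, cyclin D1, 134 and 184 inside its span (1.36, 1.08 to 1.72). None passed the rule for a call. Of the 219 well-covered regions near the 45 genes 2 were higher (0.913%, against 1.58% of all) and 0 lower (0.645% of all), with a median log2 ratio of −0.01. The 2 genes near a higher region are 4.44% of the list, against 3.23% of protein-coding genes. One lay 16446 bp from RET, a receptor tyrosine kinase (chr10:43060246-43060890), with 117 and 178 fragments (1.51, 1.19 to 1.92), and the other in BCL2, an inhibitor of cell death (chr18:63241140-63242121), with 87 and 145 (1.65, 1.26 to 2.18). The strongest RET region, inside the gene, had 302 and 273. The RET call was lost with 5 Mb centring, by which CA12 and BCL2 were near a higher and RARA near a lower region. With background scaling 5 targets were near a higher region, CTSD, CA12 and CALCR being added.

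Androgen receptor target and apocrine genes, a group for which this line is known, had 6 higher (4.88%, against 1.58% of all) and 1 lower (0.813%, against 0.645%) of 123 well-covered regions near the 30 genes. The higher ones were near 4 genes (13.3%, against 3.23% of protein-coding genes), and 3 of the 6 belong to 1 locus. One lay in NNMT, 5245 bp from ZBTB16, a zinc finger repressor gene, with 68 and 114 fragments (1.66, 1.22 to 2.28), and one in the homeobox gene CUX2 with 108 and 174 (1.60, 1.25 to 2.05). Another 3 were near SORD, sorbitol dehydrogenase, and belong to its neighbour DUOX2, with 67 and 158, 71 and 118, and 29 and 80 fragments. KCNMA1, a potassium channel gene, held one of each kind, with 111 and 178 fragments (1.59, 1.25 to 2.04) and 165 and 110 (0.661, 0.515 to 0.847). The lower one did not pass with background scaling.

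Among 19 luminal transcription factor genes on these chromosomes 0 had a higher and 2 a lower region, of 93 well-covered regions (0% higher and 2.15% lower, against 1.58% and 0.645% of all) with a median log2 ratio of −0.09. ESR1, the gene of ERα itself, held a region with 82 and 40 fragments (chr6:152050241-152050849, 0.484, 0.323 to 0.715). With 5 Mb centring 1 gene of the list, ESR1, was near a lower region and 0 near a higher one. With background scaling 2 genes were near a lower region and 3, TFAP2C, RUNX1 and ESR1, near a higher one, so that the absence of higher regions near this list depends on the scaling.

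Nuclear receptor coregulators had 2 higher (3.64%) and 0 lower of 55 regions near 18 genes, against 1.58% and 0.645% of all regions, and under the other 2 scalings the same 2 genes were near a higher region. One of them, PPARGC1B, a coactivator of nuclear receptors, had 70 and 135 (1.91, 1.42 to 2.59). Of 81 regions near 20 receptor tyrosine kinase and PI3K genes, 2 were higher (2.47%) and 1 lower (1.23%). They were the RET region, one in PGPEP1L, 16499 bp from IGF1R, the insulin-like growth factor receptor, with 36 and 91 fragments (2.51, 1.69 to 3.80), and a lower one in FGFR4, a fibroblast growth factor receptor, with 75 and 39 (0.516, 0.341 to 0.770), which was not called with background scaling. Near 22 cell cycle and replication genes 1 of 31 regions was higher (3.23%, against 1.58% of all), in RRM2, a subunit of ribonucleotide reductase, with 164 and 256 fragments (1.55, 1.27 to 1.90), and 0 were lower. With 5 Mb centring CDC6 was added as lower.

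The remaining lists held almost no calls. Immediate early genes had 0 of 45 regions called and estrogen synthesis and metabolism genes 0 of 42, also under the other 2 scalings. Neuronal genes, a comparison list for another cell type, had 1 lower of 56, in SYT1, synaptotagmin, with 156 and 97 fragments (0.617, 0.474 to 0.800), and CAMK2A was near a higher one with background scaling. Immune genes, the other comparison list, had 0 of 27. With 1.58% of all regions higher and 0.645% lower, lists of this size are too small for a count of 0 or 1 to set them apart.

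Promoters gave a limited view of the letters under the summits. Of 33558 RefSeq promoters of 300 bp on the same chromosomes, 5089 held a summit of a merged region and 710, in 631 regions, a well-covered one. Of these, 8 promoters in 7 of the 631 regions were higher and 3 in 3 regions lower. Among all well-covered regions, 1.58% were higher and 0.645% lower. OXT had 66 fragments without and 139 with E2 (2.09, 1.55 to 2.84), with the summit 154 bp before the start site and 4 GGTCA matches. SIPA1 had 74 and 150 (2.01, 1.51 to 2.69) and TEX35 56 and 110 (1.95, 1.40 to 2.74). The latter promoter overlaps that of LOC101928866 on the other strand, and the rest belonged to the lncRNA or uncharacterised genes LINC01656, LINC02692, LINC00299 and LOC105371022. EGLN1 had 69 and 33 (0.474, 0.303 to 0.728), KRT7-AS 76 and 37 (0.483, 0.317 to 0.725) and DDX5 142 and 85 (0.594, 0.448 to 0.782).

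Exact matches on both strands were counted in these promoters. GGTCA was in 37.4% of all promoters, 49.5% of those with a summit and 73.1% of the well-covered ones, in 8 of 8 higher and 1 of 3 lower promoters. By class it was in 53.9% of 3799 promoters with a shared region, in 42.5% of 381 with a region found only with E2 and in 34.0% of 909 with one found only without E2, beside 35.2% of promoters with no summit. The full palindrome (GGTCA, any 3 bases, TGACC), which contains GGTCA on both strands, was in 20 promoters (0.0596%), 13 of them with a summit, 6 well covered and 0 called. Among these 6, ZNF669 shares its region with FLJ39095, and LINC02466 shares one with LINC02465. So few regions cannot set a count of 0 apart from the shares called among all regions. SLC35B2 had 91 and 116 fragments (1.26, 0.953 to 1.68) and ZNF669 had 218 and 224 (1.02, 0.842 to 1.23). The AP-1 motif TGANTCA was in 7.68% of all promoters and 11.5% of the well-covered ones, the forkhead motif TGTTTAC in 3.44% and 4.23%, AGAACA, the core of androgen receptor sites, in 14.9% and 12.8%, the GC box GGGCGG in 45.0% and 53.7%, and the AP-2 motif GCCNNNGGC in 23.3% and 33.7%. Across the 710 promoters, which share the same 2 libraries, Pearson's r between GC content and the log2 E2 ratio was 0.0053. A match is a description of letters and not a site. The absence of a match says only that the letters are not in the window.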

How the data were processed

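ERα ChIP-seq peak lists of 2 wild-type libraries were compared, beside those of 4 K303R and Y537S libraries, with 1 library per group taken from the sample titles. Per the submitters' processing notes, the build was hg38 and the tools were MACS2, Bowtie2, Picard, SAMtools and bedtools. What each did, its version, the control library, the read filters and the threshold: not given in the sources used here. In each deposited list the authors give a fold (a ratio to local background), a −log10 p, a −log10 q and a score per peak. The deposited score was not used. Sequencing depth is not given in these lists.

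The fold, taken as (fragments + 1) over (background + 1), and the Poisson −log10 p deposited by the authors were solved for a whole number of summit fragments, and 100% of peaks in all 6 lists matched to within 0.01%. The recovery and the calls were also tested on simulated data made with the same formula and Poisson counting model. Such data hold no difference between cultures of 1 group, so they do not test the calls against it. Regions were assigned to the gene that holds the summit, or else to the nearest protein-coding gene, with the RefSeq table of GRCh38.p14, the assembly of hg38. That table gives gene spans and no exons, so positions within genes (exon, intron, UTR) are not described. A planned gene start was replaced by either gene end. The promoter table is not complete and has none on chromosome 8. Promoters were matched by symbol for 14985 of 19126 protein-coding genes.

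Ratios were centred on the median well-covered region, with exact conditional intervals of 2 Poisson counts. Shares have Wilson intervals. No p-value was computed. Named regions are the 10 higher and 10 lower with intervals farthest from 1, the 5 strongest of each list and class, the strongest near each classical target, calls near the 10 listed gene groups (232 genes examined), and the 5 genes with most calls in each direction. The named promoters and the sixth gene, DUOX2, were chosen after their values were seen. The values of 2 called regions near listed genes are not reported here. Members and lists were chosen with earlier results of these data known. Alternatives covered overlap, strength, minimum count, fold, scaling, interval and distance. Python 3.11.15, scipy 1.17.1 and pandas 2.3.3 were used.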

Additional observations from a re-analysis of the deposited data

Results flagged for a closer look

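The E2 ratio of several regions lay on one side of 1 in wild type and on the other in another receptor line. At regions higher with E2 in wild type, the Y537S ratio was 0.949 at VRK1, 0.921 at LOC124905027, 0.940 at RYR1, 0.998 at ADAM12, 0.983 at ZBTB21, 0.952 at SLC38A12 and 0.867 at BAZ1B. At regions lower in wild type it was 1.14 at MAT2B, 1.16 at FYB2, 1.22 at DHX35, 1.07 at ARRB1 and 1.09 at FLT1. In K303R the ratio was 1.01 at DHX35, 1.10 at ARRB1 and 1.13 at DIAPH3. The difference between lines was not tested at any of these regions, and the intervals of all these ratios in the other lines include 1. For Y537S the receptor and the peak-name tag cannot be told apart.

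Chromosome X, which the comparison leaves out, held 4804 merged regions in the wild-type lists, 1009 of them well covered. With the same scaling and rule, 13 of these were higher and 4 lower with E2. Of the 36285 well-covered regions in the comparison, 573 (1.58%) were higher and 234 (0.645%) lower. The counts on chromosome X were not tested against these shares.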

How the results depend on the processing

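No paired analysis was possible because each group has 1 library. With a −log10 q of at least 10, 10256 E2 peaks and 12223 peaks without E2 were absent from the other list. Counts of higher and lower regions were 916 and 454 with a minimum mean of 20 fragments, 194 and 52 with 100, 197 and 67 with a 2-fold rule, 899 and 106 with background scaling, and 1548 and 1181 with a 95% interval. All 573 higher regions were among the 899, and 106 of the 234 lower ones passed with that scaling. With a minimum mean of 20, which also centres the ratios anew, all 573 higher and 214 of the 234 lower regions kept their call. With 5 Mb centring, 408 higher and 165 lower regions kept their call. Within 5 kb of a gene end lay 32.6% of higher, 28.2% of lower and 28.7% of well-covered regions. Genes within 100 kb numbered 1364 for higher and 497 for lower regions. Estrogen receptor targets near a higher region numbered 1 within 10 kb and 6 within 100 kb. The call was kept in all 101 pairs of a named region, of 20, and an alternative. A minimum mean of 100 could be applied to 1 of them, SLC38A12. A 95% interval is looser than the rule used, and so is a minimum of 20 apart from its own centring. These regions were chosen for intervals farthest from 1 and all were past 2-fold, so the 2-fold rule could not drop them. Scaling by background raised every ratio and could not drop a higher region. Weak peaks can be in 1 list through the threshold, and no replicate shows how far 2 cultures of 1 group differ.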
